A study of Homo sapiens with 30 samples.

Results

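The 42 genes described here encode the enzymes of glycolysis, the pyruvate dehydrogenase complex and the citric acid (tricarboxylic acid) cycle, with the glucose transporter SLC2A1. They were chosen by symbol from the deposited table, which lists 16975 genes, and all 42 were present. The list holds 18 genes of glucose uptake and glycolysis, 5 of the pyruvate dehydrogenase complex and 19 of the cycle and its isoforms. Of these, 41 carried enough reads to be tested. ALDOC, the brain form of aldolase, had 34 reads in all and 0 reads in 20 of the 30 libraries, and was not tested.

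Glycolysis splits glucose into pyruvate in the cytosol. Lactate dehydrogenase then turns pyruvate into lactate, or the pyruvate dehydrogenase complex turns it into acetyl-CoA inside mitochondria, where the citric acid cycle oxidises it. Several steps have isoforms from separate genes that differ in tissue use and control, among them hexokinase (HK1, HK2), phosphofructokinase (PFKL, PFKM, PFKP), enolase (ENO1, ENO2) and lactate dehydrogenase (LDHA, LDHB). Many glycolytic genes are known targets of the hypoxia-inducible factors, while the cycle enzymes are encoded by nuclear genes whose products are imported into mitochondria, apart from cytosolic forms such as IDH1, MDH1 and ACO1.

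The cells were of the human embryonic kidney line HEK293, and their mRNA was quantified by 3' RNA-seq, in which every read stands for a transcript's 3' end. HEK28 is a HEK293 derivative that secretes coagulation factor VIII, and the series' title ties factor VIII secretion to energy metabolism. The 10 groups of 3 libraries were the parental HEK line, HEK28 itself with no gene targeted, and 8 HEK28 lines in which CRISPR was aimed at 1 gene each. The targets were CANX and CALR (the chaperones calnexin and calreticulin), LMAN1 and MCFD2 (the cargo receptor of factor VIII), GABARAP, GABARAPL1 and GABARAPL2 (ATG8-family proteins of autophagosomes) and ATG7 (an enzyme of ATG8 lipidation). All 9 lines other than the parental one are the factor VIII line or derived from it, and no group received a treatment. Cultures were collected at about 70% confluency. The labels do not say whether a line is 1 clone or how the factor VIII line was made, so differences between lines may be differences between clones. Separate cultures for the 3 libraries of a group are not mentioned either, and p-values therefore measure only the spread between libraries, which may be technical. In bulk RNA, fewer cells of a type and less RNA per cell cannot be told apart.

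Reads in genes ran from 152105 to 3954585 per library, with a median of 617561, and were lowest in HEK28 replicate 1. HEK28 replicates 2 and 3 held 417653 and 305649 reads. HEK28 replicates 1 and 2 stood apart from replicate 3: a read level below 10% of the knockout median was found for 2, 3 and 0 members in replicates 1, 2 and 3, for 1, 1 and 0 in the parental libraries, and for 0 in each knockout library. Counts of calls that rest on HEK28 are therefore given with and without these replicates, and so are single values where leaving them out ends a call, turns a sign or moves the value by over 1.5 times. Of 12 genes known from HEK293 cells and embryonic kidney, 10 were listed, and the summed level of those with recovered reads was 1088 to 1135 CPM (reads scaled to a common library size) in the parental libraries and 1794 to 2943 in all other libraries. Of the defining markers of hepatocytes (ALB, APOA1, TTR) and muscle, 0 were listed, and of those of fibroblasts and endothelium 1 each. Of 8 markers of mature kidney epithelium 3 were listed. Of 5 blood cell markers 4 were listed, with 814 reads in all, mostly of HBB (528), and their sum reached 78.9 CPM in HEK28 and 38.0 CPM in parental libraries. Each of the 8 targeted genes was lower in its own line than in the other knockouts, by 0.51 to 3.34 on the log2 scale, and 4 passed (CANX, LMAN1, CALR and MCFD2). A 3' tag need not lie in the edited part of a gene, so its level alone does not check a label. The part of the marker difference in the comparisons with the parental line was not tested. A deposited log2 value is a level per unit of a length set for each gene, so that 1 unit is a doubling between libraries. It is compared here between libraries for 1 gene, not between genes.

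Most glycolytic enzymes were higher in the factor VIII lines than in the parental line, and most cycle enzymes moved less. In HEK28 against parental, 17 of the 41 tested members rose and 5 fell (limma, adjusted p under 0.05), where 31.8% of all 11337 tested genes passed, 16.7% higher and 15.1% lower. In the mean of the 8 knockout lines against parental, 25 members rose and 2 fell, where 37.3% of all genes passed, 23.9% higher and 13.4% lower. Both comparisons use the same 3 parental libraries. The members' median log2 fold change was 0.63 in the first and 0.91 in the second, and that of all tested genes -0.07 and 0.10.

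The glycolysis list accounted for most of these calls. In HEK28 against parental 13 of its 17 tested members rose and 2 fell, with a median log2 fold change of 1.34. In the knockout mean 14 rose and 1 fell, with a median of 1.53. Of the 5 pyruvate dehydrogenase genes, 1 and 3 rose in these comparisons and 0 fell in either. Of the 19 cycle genes, 3 rose and 3 fell in HEK28, with a median of 0.07, and 8 rose and 1 fell in the knockout mean, with a median of 0.58.

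**Figure D1:**
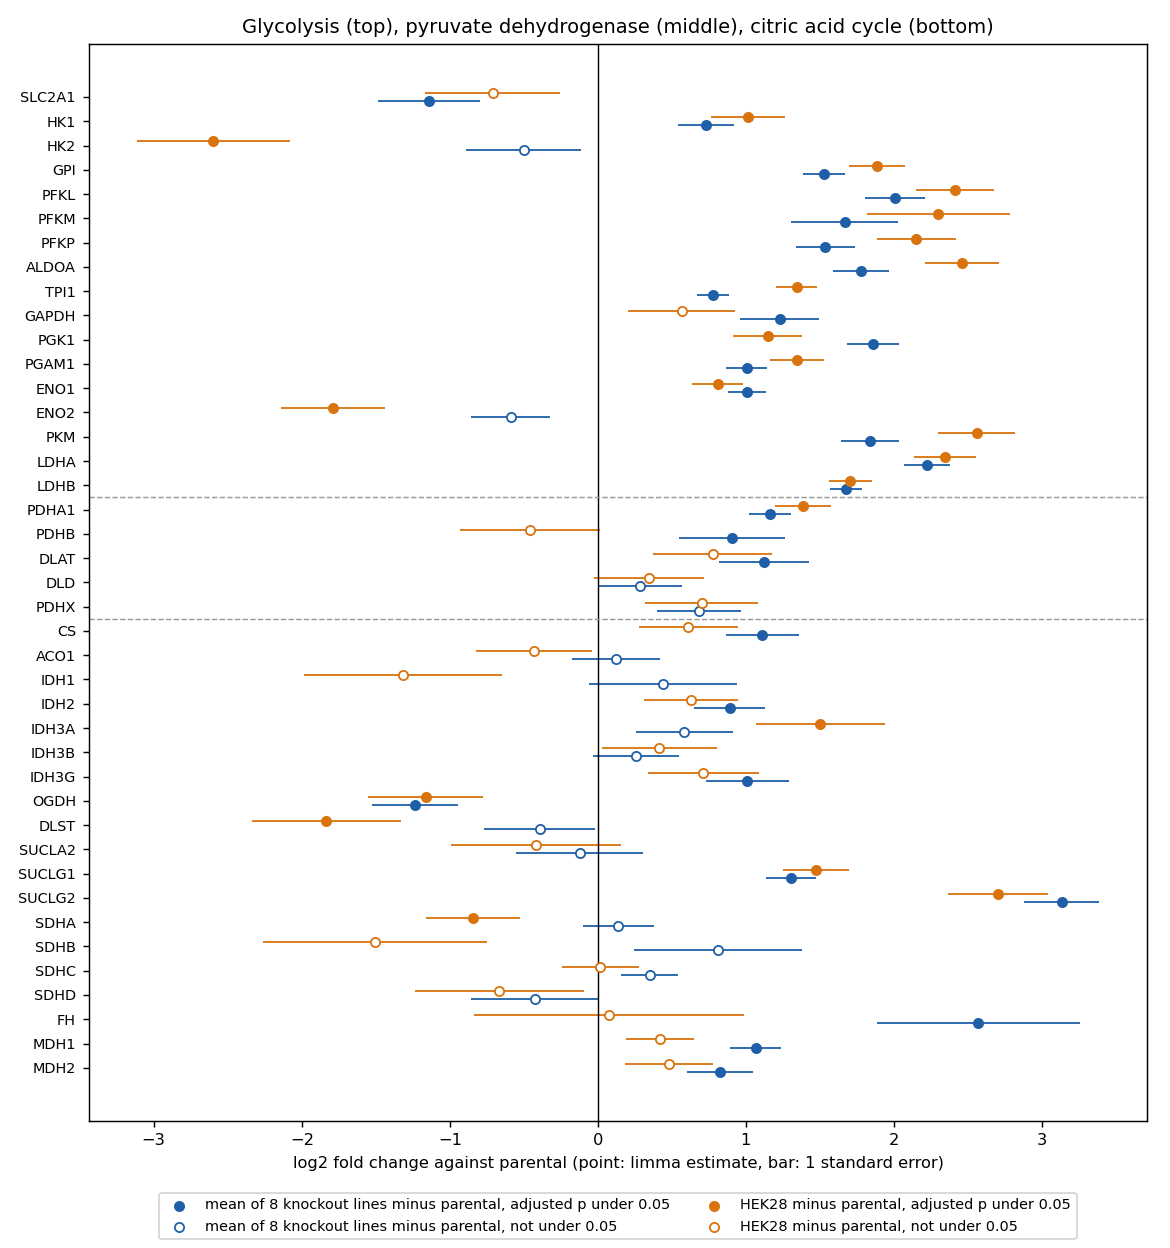
Log2 fold changes of the 41 tested members against the parental line (horizontal axis) for HEK28 (orange) and for the mean of the 8 knockout lines (blue), with bars of 1 standard error, open where the adjusted p was not under 0.05. Among the 17 glycolytic genes, 13 of the HEK28 points and 14 of the knockout points lie to the right of 0 and are filled, while the 19 cycle genes scatter on both sides.

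Lactate dehydrogenase gave the lowest adjusted p of the list. Gene positions are GRCh38 coordinates from GENCODE 29, start to end of the gene. LDHA (ENSG00000134333, chr11:18394388-18408425, plus strand), whose subunit prevails in glycolytic tissues, had log2 values of 4.62, 4.58 and 5.39 in the parental replicates, 7.24, 7.32 and 7.06 in HEK28 and 6.68 to 7.82 (median 6.97) in the 24 knockout libraries. All 27 libraries of the factor VIII lines lay above all 3 parental ones, by 2.35 ± 0.21 for HEK28 (log2, SE; limma adjusted p = 1.3e-08) and 2.22 ± 0.16 for the knockout mean (4.67-fold, limma adjusted p = 1.04e-10). LDHB (ENSG00000111716, chr12:21635342-21757857, minus strand), whose subunit prevails in oxidative tissues, stood at 7.62, 7.58 and 7.37 in parental, 8.99, 9.32 and 9.37 in HEK28 and 8.63 to 9.74 (median 9.18) in the knockouts. Its rise was 1.71 ± 0.14 and 1.68 ± 0.11 (3.2-fold; limma adjusted p = 6.47e-09 and 2.63e-11), again without overlap between the groups. Both isoforms were thus higher. GENCODE 29 names 6 pseudogenes after LDHA and 3 after LDHB, and reads shared with them cannot be told apart here.

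Sequences before RefSeq start sites of these genes were searched for the core of the hypoxia response element. The letters searched were ACGTG and GCGTG on both strands, in the 250 bases upstream of the first start listed for each symbol in RefSeq (GRCh38.p14). A RefSeq start can lie inside the GENCODE gene: the windows of LDHB and ENO2 lie wholly within it and those of LDHA and HK2 in part, so they are upstream of that start and not always of the gene. A palindrome CACGTG counts on each strand. At least 1 match was found for 43.1% of 27305 symbols and for 55.6% of the 18 glycolytic genes, 80.0% of the 5 pyruvate dehydrogenase genes and 58.8% of the 17 cycle genes with an entry. ACGTG alone was found for 18.7%, 44.4%, 40.0% and 11.8%. OGDH and SDHC have no entry. Matches are in capitals below. For LDHA, HK2 and ENO2 only 30 bases around them are shown, and for LDHB, which has 0 matches, the whole window. ACGTG was found in the windows of LDHA, HK2 and ENO2 and 0 times in those of LDHB, HK1 and ENO1, while ENO1 has GCGTG. Among other isoforms, ACGTG was found 0 times for PFKL, PFKM and PFKP, for SUCLG2 and SUCLA2, and for MDH1 and MDH2. It was present in the windows of both ALDOA and ALDOC, and in that of IDH1 but not of IDH2. A match is a description of these letters and was not tied to binding of any factor.
LDHA, chr11:18394366-18394395, plus strand: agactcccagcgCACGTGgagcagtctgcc
LDHA, chr11:18394470-18394499, plus strand: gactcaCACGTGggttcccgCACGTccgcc
LDHB, chr12:21657843-21658092, minus strand: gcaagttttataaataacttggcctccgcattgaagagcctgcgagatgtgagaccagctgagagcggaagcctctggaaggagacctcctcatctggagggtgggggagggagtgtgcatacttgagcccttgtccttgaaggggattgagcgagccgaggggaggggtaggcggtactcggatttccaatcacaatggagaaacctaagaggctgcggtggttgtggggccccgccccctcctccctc
ENO2, chr12:6914449-6914478, plus strand: cacccgcgctcgtACGTGcgcctccgccgg
HK2, chr2:74833885-74833914, plus strand: tagccacggaccaCACGTcccatctcaggc
HK2, chr2:74834063-74834092, plus strand: agccaatggGCGTGcgCACGTcactgatcc

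Enzymes from the upper to the lower part of glycolysis followed LDHA and LDHB. GPI, glucose-6-phosphate isomerase, had log2 values of 6.31, 6.61 and 6.54 in parental and 8.36, 8.72 and 8.02 in HEK28, and ran from 7.50 to 8.71 (median 7.98) in the knockouts. It rose by 1.89 ± 0.19 in HEK28 and by 1.53 ± 0.14 in the knockout mean (SE; limma adjusted p = 7.76e-08 and 1.15e-08), with no parental library reaching the others. PGK1, phosphoglycerate kinase and one of the steps that yield ATP, measured 6.80, 6.24 and 6.61 in parental, 7.65, 7.03 and 8.40 in HEK28 and 7.84 to 9.05 (median 8.38) in the knockouts. Its rise was 1.15 ± 0.23 in HEK28 and 1.86 ± 0.18 in the knockout mean (limma adjusted p = 0.000611 and 1.58e-08). PGK1 also kept the groups apart, with HEK28 replicate 2 the closest to the parental libraries. Without HEK28 replicates 1 and 2 its rise in HEK28 was 1.85, and with only the 6 samples of the comparison it did not pass (limma adjusted p = 0.143).

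The other glycolytic genes that rose in both comparisons were HK1, all 3 phosphofructokinase genes (PFKL, PFKM, PFKP), ALDOA, TPI1, PGAM1, ENO1 and PKM. Their log2 fold changes in the knockout mean ran from 0.73 for HK1 to 2.01 for PFKL (limma adjusted p = 0.00375 and 3.28e-08). In HEK28 they ran from 0.81 for ENO1, the common enolase, to 2.56 for PKM, pyruvate kinase (limma adjusted p = 0.000792 and 8.64e-08). Leaving out the same 2 replicates, ENO1 was at 1.22, PFKL at 1.57 and PKM at 1.68, and HK1 at 0.56 did not pass (limma adjusted p = 0.242). HK1 also lost its call in the knockout mean with voom weights on recovered reads (0.44, limma adjusted p = 0.118), an alternative chosen after seeing the data. With only the 6 samples of HEK28 and parental, ENO1, HK1 and PFKM did not pass (limma adjusted p = 0.170, 0.210 and 0.0760), and PFKM rests on 1, 7 and 3 parental reads. The libraries did not overlap for any of the 9 in HEK28 against parental, and overlapped for TPI1, PFKM and HK1 in the knockouts against parental. GAPDH rose in the knockout mean by 1.23 (limma adjusted p = 0.000922) and was at 0.57 in HEK28 (limma adjusted p = 0.241), with 62 pseudogenes named after it in GENCODE.

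The mRNA of the listed glucose transporter did not follow, and glucose uptake itself was not measured. SLC2A1, the basal glucose transporter GLUT1, had log2 values of 3.44, 4.20 and 3.30 in parental, 2.77, 3.03 and 2.99 in HEK28 and -0.18 to 4.30 (median 2.59) in the knockouts. It fell by 1.14 on the log2 scale in the knockout mean (SE 0.34, limma adjusted p = 0.0113), with overlap between the groups, and the call ended without parental replicate 2 (-0.86, limma adjusted p = 0.114). In HEK28, where the 3 libraries lay just below the parental ones, the difference was -0.71 ± 0.46 and did not pass (limma adjusted p = 0.248).

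**Figure D2:**
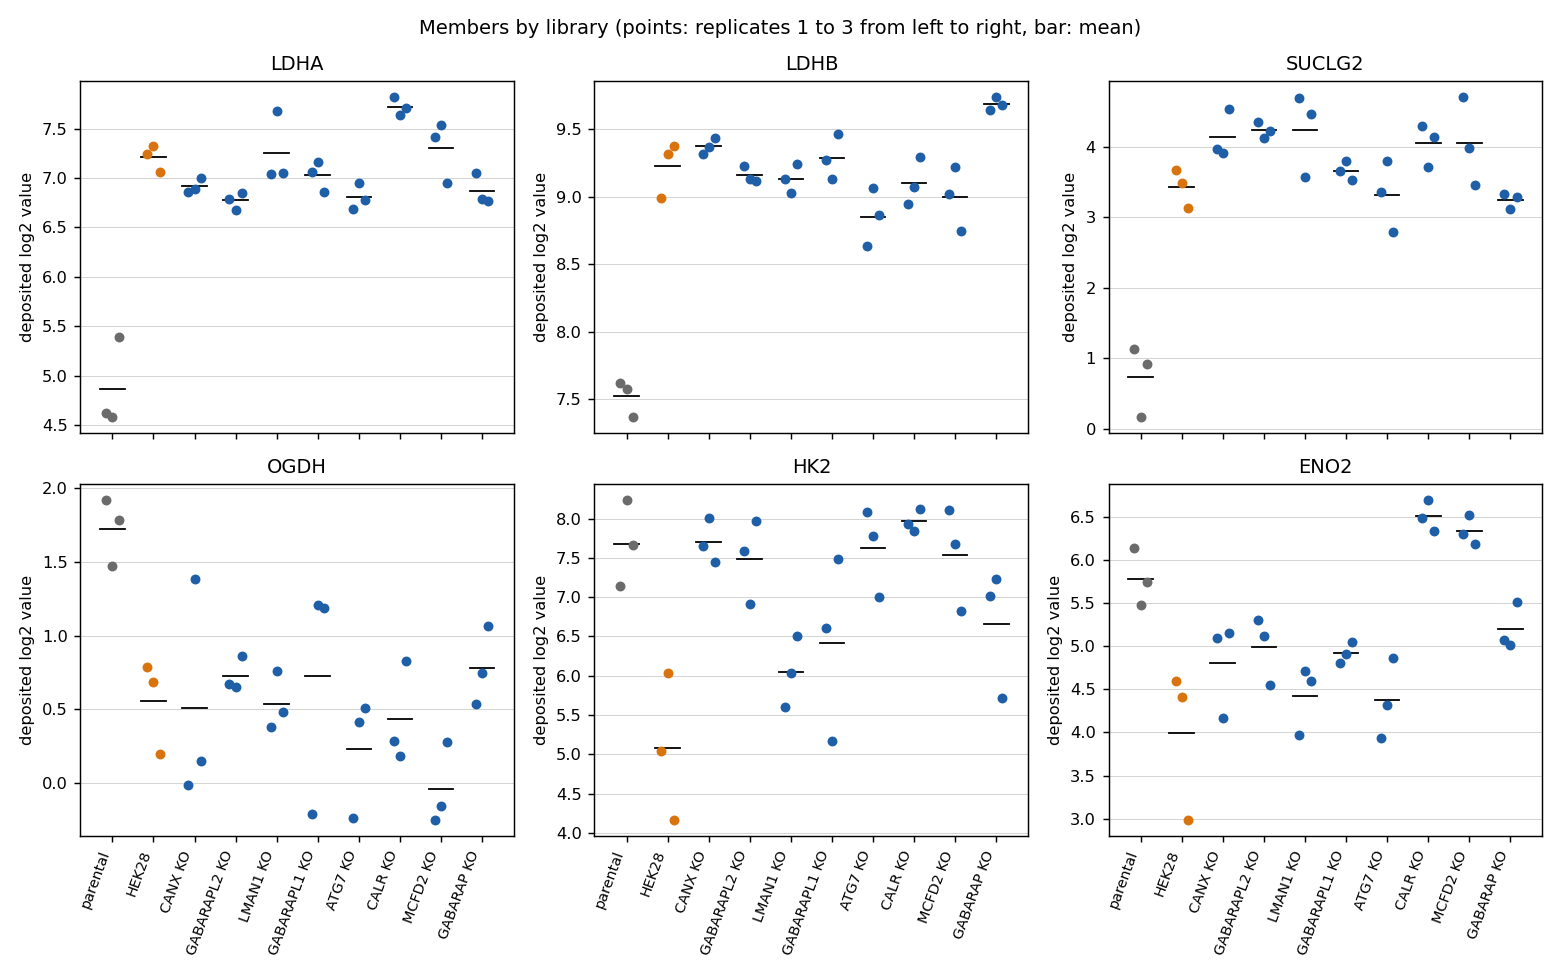
Deposited log2 values (vertical axis) of LDHA, LDHB, SUCLG2, OGDH, HK2 and ENO2 in the 3 replicates of each of the 10 groups, with bars at group means. The 3 parental points lie below all others for LDHA, LDHB and SUCLG2 and above all others for OGDH, and the HEK28 points for HK2 and ENO2 lie below the parental ones.

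The hexokinase and enolase isoforms HK2 and ENO2, inducible and neuronal forms of their enzymes, went the other way in HEK28. HK2 had log2 values of 7.14, 8.24 and 7.66 in parental and 5.04, 6.04 and 4.16 in HEK28, a difference of -2.60 ± 0.52 (limma adjusted p = 0.000481), and ran from 5.17 to 8.12 (median 7.47) in the knockouts. It rests on few reads: 24 in the parental libraries together and 0, 2 and 0 in the HEK28 replicates. A library with 0 reads still has a deposited level, since 0.5 was added to the reads, and that level depends on its depth. That is a parental to HEK28 ratio of 9.57 in CPM, with an exact 95% counting interval of 2.38 to 83.5. The 24 knockout libraries held 421 HK2 reads, 6.58 times the HEK28 level in CPM (1.81 to 54.5), and did not pass against parental (-0.50 ± 0.39, limma adjusted p = 0.326). Such intervals cover counting error only.

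ENO2 measured 6.14, 5.47 and 5.74 in parental and 4.60, 4.41 and 2.98 in HEK28, a difference of -1.79 ± 0.35 (limma adjusted p = 0.000433). It had 40 reads in the parental libraries and 8 in HEK28, a ratio of 3.99 (1.84 to 9.86). In both genes all 3 HEK28 libraries lay below all 3 parental ones. With the 6 samples of the comparison alone ENO2 did not pass (limma adjusted p = 0.0922). In the knockouts ENO2 ran from 3.94 to 6.70 (median 5.06), and the mean did not pass against parental (-0.59 ± 0.26, limma adjusted p = 0.083).

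In the cycle, the subunits of succinyl-CoA synthetase, which converts succinyl-CoA to succinate, gave the largest difference. SUCLG2 (ENSG00000172340, chr3:67360460-67654614, minus strand), the GTP-forming beta subunit, had log2 values of 1.13, 0.16 and 0.91 in parental, 3.68, 3.49 and 3.14 in HEK28 and 2.79 to 4.71 (median 3.86) in the knockouts. It rose by 2.70 ± 0.34 in HEK28 and by 3.13 ± 0.25 in the knockout mean (8.78-fold; limma adjusted p = 1.64e-06 and 1.12e-09). Every library of the factor VIII lines lay above every parental one, where SUCLG2 had 1, 1 and 4 reads. By pooled reads the 24 knockout libraries held 1649 SUCLG2 reads, 10.8 times the parental level in CPM, with a counting interval of 4.94 to 29.4. The shared alpha subunit SUCLG1 rose by 1.47 and 1.30 (limma adjusted p = 2.09e-05 and 1.34e-06). With only the 6 samples of HEK28 and parental SUCLG1 did not pass (limma adjusted p = 0.0845). The ATP-forming beta subunit SUCLA2 was at -0.42 ± 0.58 and -0.12 ± 0.43 and did not pass (limma adjusted p = 0.618 and 0.846). SUCLA2 read 3.30, 1.98 and 3.64 in HEK28, on 1, 1 and 3 reads, and 3.08, 3.33 and 3.78 in parental.

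OGDH (ENSG00000105953, chr7:44606572-44709066, plus strand), the first subunit of the 2-oxoglutarate dehydrogenase complex, was the member that passed as lower in both comparisons. Its log2 values were 1.92, 1.47 and 1.78 in parental, 0.79, 0.69 and 0.20 in HEK28 and -0.25 to 1.38 (median 0.50) in the knockouts. The difference was -1.16 ± 0.39 in HEK28 and -1.23 ± 0.29 in the knockout mean (limma adjusted p = 0.0239 and 0.00169), and no library overlapped with the parental ones. The HEK28 call ended without HEK28 replicate 3 (-0.98, limma adjusted p = 0.0725) and without parental replicate 1 (-1.07) or 3 (-1.14; limma adjusted p = 0.0737 and 0.0577). It also ended with only the 6 samples (limma adjusted p = 0.213), after quantile normalisation (-0.99, limma adjusted p = 0.0695) and without the filter on low values (limma adjusted p = 0.0525).

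Among the entry enzymes, PDHA1, the catalytic alpha subunit of pyruvate dehydrogenase, rose by 1.39 in HEK28 and 1.16 in the knockout mean (limma adjusted p = 5.83e-06 and 7.16e-07), and CS, citrate synthase, by 1.11 in the knockout mean (limma adjusted p = 0.0011). MDH1 and MDH2, cytosolic and mitochondrial malate dehydrogenase, rose there by 1.06 and 0.82, FH (fumarase) by 2.57, DLAT by 1.12, PDHB by 0.91, IDH2 by 0.89 and IDH3G by 1.01. Without 1 parental library the calls of FH (1.77, limma adjusted p = 0.0968), DLAT (0.94, limma adjusted p = 0.057) and PDHB (0.43, limma adjusted p = 0.447) ended, in each case replicate 1. Those of IDH2 (0.57, limma adjusted p = 0.111) and MDH2 (0.66, limma adjusted p = 0.0664) ended without parental replicate 3, and that of PDHB also without replicate 2 (limma adjusted p = 0.0638), after quantile normalisation and without the filter (limma adjusted p = 0.0536 and 0.0657). With voom weights FH (2.28), DLAT (0.82), PDHB (0.46) and IDH3G (0.87) did not pass (limma adjusted p = 0.165, 0.118, 0.311 and 0.0639). FH had 0, 10 and 4 parental reads, and by pooled reads the knockout level in CPM was 4.62 times the parental one (counting interval 2.75 to 8.47). IDH3A, a subunit of the NAD-dependent isocitrate dehydrogenase, rose in HEK28 by 1.50 (limma adjusted p = 0.0104), and that call ended without parental replicate 2 (1.15, limma adjusted p = 0.0721), with the 6 samples alone and with voom weights (limma adjusted p = 0.0835 and 0.0571). The 9 members that passed in neither comparison were DLD, PDHX, ACO1, IDH1, IDH3B, SUCLA2, SDHB, SDHC and SDHD. They were at -1.50 (SDHB) to 0.70 (PDHX) in HEK28 and -0.43 (SDHD) to 0.81 (SDHB) in the knockout mean. The -1.50 of SDHB rests on 0, 1 and 19 reads in the HEK28 replicates. Its replicate 3 (4.60) lay above the parental libraries (3.43, 3.64 and 2.69). So did that of IDH1 (6.56 against 5.84, 6.46 and 5.97), where replicates 1 and 2 had 1 and 0 reads. PDHX read 2.59, 1.87 and 1.44 in HEK28 and 0.17, 1.92 and 1.71 in parental.

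Genes around the 2 pathways were counted from lists of their neighbours in metabolism, beside the 31.8% of all genes that passed in HEK28 and the 37.3% in the knockout mean. In the knockout mean against parental 10 of 19 other cycle and shuttle genes rose and 0 fell, among them SLC25A11, the mitochondrial 2-oxoglutarate carrier (2.19), and ACLY, which makes cytosolic acetyl-CoA from citrate (1.25; limma adjusted p = 7.36e-08 and 3.55e-07). In HEK28 8 rose and 1 fell, with SLC25A11 at 2.82 and ACLY at 1.24 (limma adjusted p = 2.36e-07 and 3.03e-05). Of 8 pentose phosphate genes 3 rose and 0 fell in each comparison, a share of 37.5% near that of all genes, with transketolase (TKT) at 1.62 in HEK28 and 1.07 in the knockout mean (limma adjusted p = 2.83e-06 and 9.92e-06). Other glycolysis genes rose in 0 and fell in 4 of 10 cases in HEK28, and rose in 1 and fell in 2 in the knockout mean. Without HEK28 replicates 1 and 2 these 3 lists had 3 and 0, 3 and 0, and 1 and 1 in HEK28 against parental, where 21.9% of all genes passed, and ACLY was at 1.87. The glucose transporter SLC2A3 (GLUT3) was at -3.80 and -2.20 (limma adjusted p = 1.01e-05 and 0.000156) and BPGM, bisphosphoglycerate mutase, at -3.24 and -1.68 (limma adjusted p = 0.00012 and 0.00313). Without the 2 HEK28 replicates BPGM was at -1.83 in HEK28 and did not pass (limma adjusted p = 0.055).

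Targets of hypoxia-inducible factors that are no enzymes of these pathways were mixed. In HEK28 against parental 2 of 13 rose and 6 fell, with DDIT4, an inhibitor of mTORC1, at -3.45 and VEGFA, an angiogenic factor, at -2.56 (limma adjusted p = 3.36e-06 and 0.00128). With HEK28 replicate 3 alone the count in HEK28 was 1 and 1, DDIT4 was at -2.01 and VEGFA at -1.45 did not pass (limma adjusted p = 0.137). In the knockout mean 3 rose and 3 fell, with P4HA1, a collagen prolyl hydroxylase, at 1.71 and VEGFA at -1.80 (limma adjusted p = 1.78e-07 and 0.00173). Of 10 genes of pyruvate entry and its control 0 rose and 2 fell in HEK28, or 2 rose and 1 fell with replicate 3 alone, with the list's median going from -0.67 to 0.13. In the knockout mean 3 rose and 3 fell. There PDK1 and PDK3, kinases that restrain pyruvate dehydrogenase, rose by 1.08 and 1.08, and the opposing phosphatases PDP1 and PDP2 were at -1.31 and -1.41 (limma adjusted p = 0.0294, 0.0211, 0.00327 and 0.000345). PCK2 also rose, by 2.10, and MPC1 was at -0.71 (limma adjusted p = 0.00467 and 0.0213). The genes that fell in HEK28 were a kinase, PDK2 (-2.30), and PDP2 (-1.60; limma adjusted p = 0.00473 and 0.00211). With HEK28 replicate 3 alone PDK2 was at -1.39 and no longer passed, and PDP2 was at -2.85. Of 7 genes common to all cells 1 rose and 2 fell in HEK28 (2 and 1 with replicate 3 alone) and 2 rose and 2 fell in the knockout mean.

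Several members separated the HEK28 replicates from each other. SDHB, the iron-sulfur subunit of succinate dehydrogenase, read 0.20, 0.46 and 4.60 (log2) in the HEK28 replicates in order, 3.43, 3.64 and 2.69 in parental and 2.29 to 5.44 (median 4.10) in the knockouts. FH read 1.68, 1.94 and 5.75 in HEK28, 1.45, 4.88 and 2.82 in parental and 3.57 to 6.94 (median 5.83) in the knockouts, and DLST, the second subunit of the 2-oxoglutarate dehydrogenase complex, read 4.34, 3.50 and 7.06 and 5.74 to 7.11 (median 6.63). DLST was at 7.40, 6.60 and 6.40 in parental. In all 3 genes HEK28 replicates 1 and 2 lay below every knockout library, and replicate 3 lay among them. PDHB (2.85, 3.72 and 5.32) and SDHA (1.87, 2.27 and 3.86), the beta subunit of pyruvate dehydrogenase and the flavoprotein of succinate dehydrogenase, showed the same order. PDHB was at 3.47, 4.76 and 5.04 in parental and 4.20 to 6.16 (median 5.35) in the knockouts, and SDHA at 3.23, 3.69 and 3.61 and 3.18 to 3.99 (median 3.70). In reads, HEK28 replicates 1, 2 and 3 held 0, 1 and 19 of SDHB, 0, 1 and 15 of FH, 2, 3 and 30 of DLST, 2, 11 and 25 of PDHB and 6, 21 and 47 of SDHA. These 5 genes were singled out after their values were seen, apart from SDHA. HEK28 replicates 1 and 2 also lay below every knockout library for glycolytic PGK1 and for MDH1. PGK1 read 7.65, 7.03 and 8.40 in HEK28 and 7.84 to 9.05 in the knockouts. MDH1 read 7.04, 6.89 and 7.83 in HEK28 and 7.22 to 8.39 in the knockouts. GAPDH had the same order (7.76, 8.25 and 9.31), within the knockout range of 7.62 to 9.88.

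SDHA was the member that passed in HEK28 against parental (-0.84 ± 0.32, limma adjusted p = 0.0445) with the opposite sign in the knockout mean (0.14 ± 0.24, limma adjusted p = 0.677). Without HEK28 replicates 1 and 2 it was at 0.35 (limma adjusted p = 0.389), and DLST, which had been at -1.83 (limma adjusted p = 0.0071), was at 0.26 (limma adjusted p = 0.631). With 1 library left out, the SDHA call also ended without HEK28 replicate 1 (-0.44) or 2 (-0.64) and without parental replicate 2 (-0.75) or 3 (-0.79; limma adjusted p from 0.105 to 0.301), and the DLST call without HEK28 replicate 2 (limma adjusted p = 0.0781). With only the 6 samples neither passed (limma adjusted p = 0.428 for SDHA and 0.244 for DLST). SDHA also did not pass with the replicate block, quantile normalisation, the added pseudocount or no filter (limma adjusted p from 0.0502 to 0.0798). The part of the 2 libraries' low depth in these values was not tested. The fit without HEK28 replicates 1 and 2 rests on HEK28 replicate 3 and assumes that it varies like the other groups. There 19 members rose and 3 fell against parental (where 21.9% of all genes passed), among them 13 and 2 of the 17 glycolytic genes. DLST, SDHA, HK1 (0.56) and IDH3A (1.66) did not pass there (limma adjusted p of the latter pair 0.242 and 0.065), and GAPDH, DLAT, MDH1 and MDH2 passed as higher (1.44, 1.54, 0.99 and 1.15). HK2 and ENO2 had 0 and 1 reads in replicate 3, so no fold is given for them from it.

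**Figure D3:**
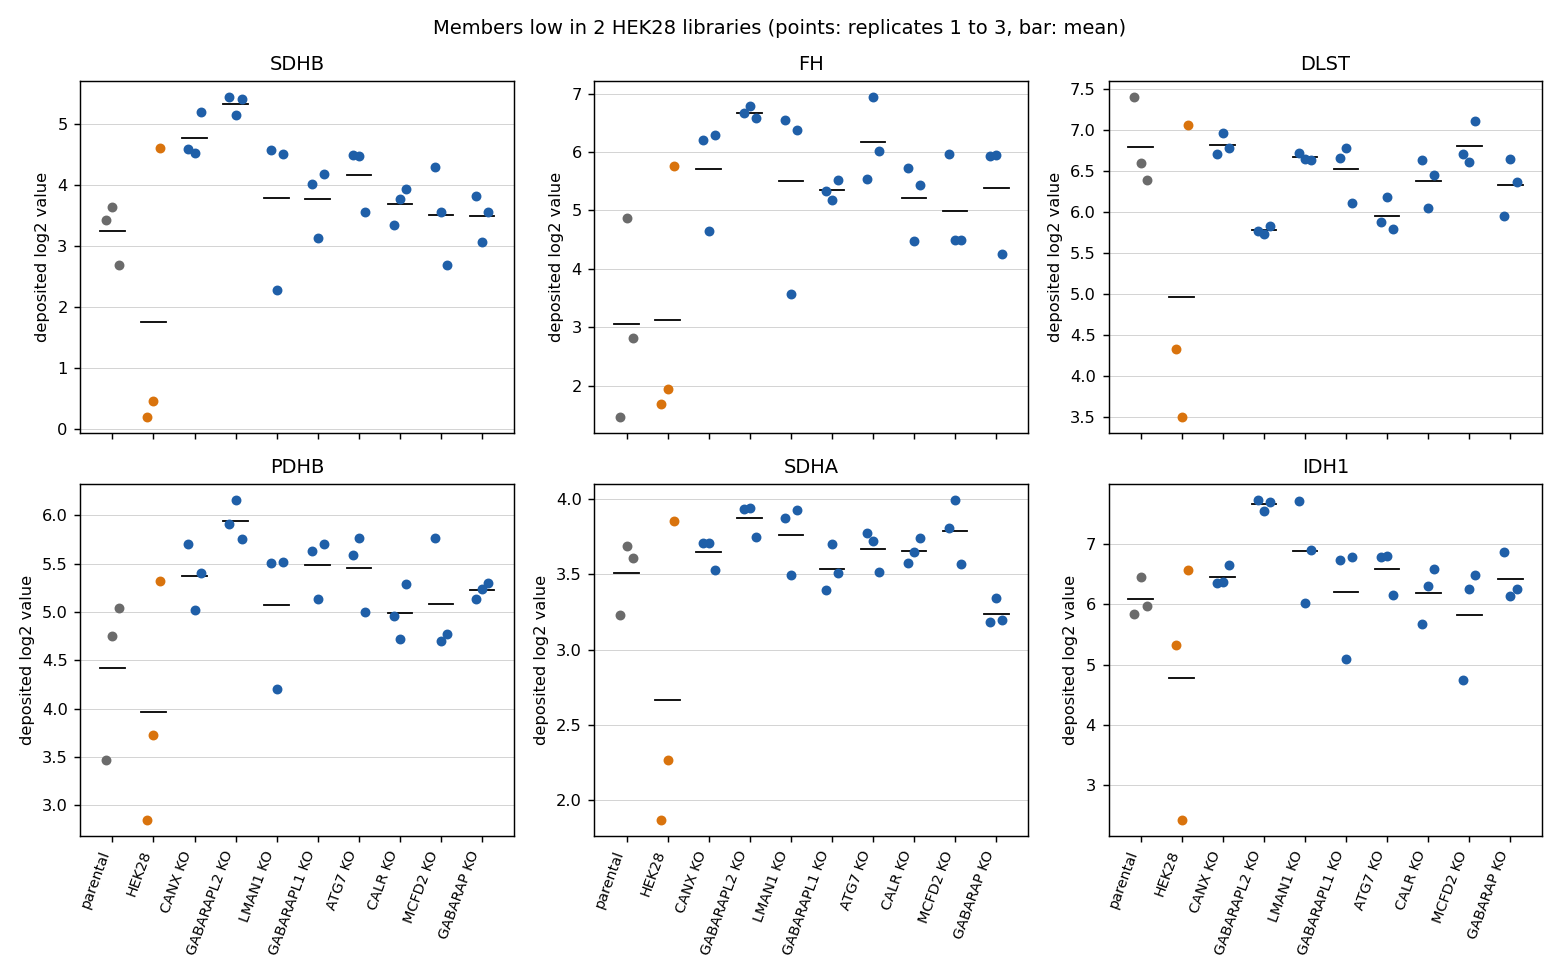
Deposited log2 values (vertical axis) of SDHB, FH, DLST, PDHB, SDHA and IDH1 in 3 replicates of each of 10 groups, replicates 1 to 3 from left to right, with bars at group means. HEK28 replicates 1 and 2 (orange) lie below every knockout point for SDHB, FH, DLST, PDHB and SDHA, while replicate 3 lies among the knockout points.

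Each knockout was set against HEK28, which is the comparison the study's design names, and the 8 comparisons share the HEK28 libraries. In the CANX knockout 8 members rose and 7 fell, where 18.8% of all genes passed, 12.3% higher and 6.45% lower. In the GABARAPL2 knockout 11 rose and 2 fell, where 26.1% of all genes passed, 18.3% higher and 7.74% lower. The LMAN1 knockout had 2 and 2, where 5.39% of all genes passed, 4.44% higher and 0.953% lower. GABARAPL1 targeting gave 1 and 3, where 9.75% of all genes passed, 6.96% higher and 2.79% lower. With ATG7 targeted 6 rose and 6 fell, where 12.5% of all genes passed, 8.26% higher and 4.22% lower. The CALR knockout had 7 and 1, where 18.2% of all genes passed, 12.0% higher and 6.18% lower, and the MCFD2 knockout 6 and 3, where 17.9% of all genes passed, 10.5% higher and 7.43% lower. In the GABARAP knockout 1 rose and 2 fell, where 5.65% of all genes passed, 4.01% higher and 1.64% lower. With the 6 samples of each comparison alone 0 members passed in any of the 8 (limma), and in the order given 8, 13, 3, 6, 6, 5, 5 and 8 had an unadjusted p under 0.05.

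Many of these calls were of the genes that were low in HEK28 replicates 1 and 2. SDHB passed as higher in the CANX, GABARAPL2 and ATG7 knockouts, FH in the same 3, and PDHB in these and the GABARAPL1 knockout. SDHA passed in all but the GABARAPL1 and GABARAP knockouts. Without HEK28 replicates 1 and 2 the 8 comparisons gave 2 members higher in the CANX knockout (2.88% of all genes passed), 2 higher and 1 lower with GABARAPL2 targeted (3.12%), 0 with LMAN1 (1.28%; 5 at an unadjusted limma p under 0.05) and 1 higher with GABARAPL1 (1.64%). They gave 1 higher and 1 lower with ATG7 (2.2%), 2 higher with CALR (5.32%), 3 higher with MCFD2 (5.71%) and 1 higher with GABARAP (2.59%).

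Of these 14 calls, 11 were HK2 or ENO2, which rest on 0 and 1 HEK28 reads there. The other 3 were DLST in the GABARAPL2 knockout (-1.29), TPI1 in the ATG7 knockout (-0.74) and PFKL in the MCFD2 knockout (1.38).

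The knockout lines were therefore compared with each other, each against the mean of the other 7, which uses no HEK28 library. Over the 8 lines together 11 of 41 members differed (limma F test, adjusted p under 0.05), where 13.1% of all genes did. With voom weights on recovered reads 27 differed, where 42.0% of all genes did. After quantile normalisation 0 of the 5 pyruvate dehydrogenase genes differed, where 1606 of all 11337 genes did. The 11 members of the main F test were 9 glycolytic genes (ENO2, TPI1, PFKL, SLC2A1, LDHB, ENO1, PFKP, LDHA and PGAM1), the cycle gene SDHD and PDHA1. In order of adjusted p the first 3 were ENO2 (0.000424), TPI1 (0.000825) and SDHD (0.00104). ENO1 (limma F test adjusted p = 0.0105) had log2 values of 6.71, 6.58 and 6.60 in parental, 7.17, 7.30 and 7.86 in HEK28 and 7.08 to 8.20 (median 7.62) in the knockouts. It was highest on average in the CALR and MCFD2 lines and lowest in the GABARAPL1 line, and passed in 0 of the 8 single comparisons, with an unadjusted limma p under 0.05 in 5 of them. The single comparisons share libraries with each other. The CANX, LMAN1 and GABARAPL1 knockouts had 0 members past the threshold. For CANX 1.39% of all genes passed, 0.529% higher and 0.864% lower, for LMAN1 1.04% of all genes passed, 0.617% higher and 0.423% lower and for GABARAPL1 0.353% of all genes passed, 0.132% higher and 0.221% lower. At an unadjusted p under 0.05 they had 8, 5 and 2 members, and limma with voom weights on recovered reads, run after seeing the data, called 6, 2 and 1, where it called 6.06%, 4.98% and 1.8% of all genes. That fit called more in the other lines too: 14 members with GABARAPL2 targeted (26.6% of all genes), 15 with CALR (18.3%; 14 of the members higher), 10 with MCFD2 (17.8%), 4 with ATG7 (2.28%) and 5 with GABARAP (8.43%).

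The CALR knockout had 4 members higher and 1 lower (2.89% of all genes passed, 1.44% higher and 1.46% lower), all of them glycolytic. ENO2 had log2 values of 6.49, 6.70 and 6.34 in the CALR knockout and 3.94 to 6.52 (median 5.01) in the other 21 knockout libraries, a difference of 1.50 ± 0.27 (limma adjusted p = 0.00171). LDHA measured 7.82, 7.64 and 7.71 against 6.68 to 7.68 (median 6.95), higher by 0.73 ± 0.16 (limma adjusted p = 0.0111). The CALR libraries were at the top of the range in both genes, with overlap from MCFD2 libraries for ENO2 and from LMAN1 replicate 2 for LDHA.

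PFKP, the platelet form of phosphofructokinase, stood at 6.62, 6.81 and 6.66 against 4.97 to 6.89 (median 5.82), a difference of 0.82 ± 0.20, and TPI1, triose-phosphate isomerase, at 12.02, 11.89 and 11.94 against 10.81 to 11.96 (median 11.49), a difference of 0.44 ± 0.11 (limma adjusted p = 0.0252 and 0.0252). GPI was the exception, at 7.55, 7.60 and 7.50 against 7.79 to 8.71 (median 8.02), a difference of -0.52 ± 0.14 (limma adjusted p = 0.0459). The CALR libraries were the 3 lowest and did not overlap with the others. GPI lies on chromosome 19, and 14 of the 15 tested genes within 1 megabase had the same sign, with a median of -0.50 and 1 of them past the threshold (CEBPG, -1.12). The part of that stretch in the GPI difference was not tested. ENO2 and TPI1 lie within 1 megabase of each other on chromosome 12. Of 26 tested genes that near to ENO2, 12 had the same sign in the CALR knockout, with a median of -0.05. Past the threshold were 3: TPI1, C12orf57 (0.96) and SLC2A3 (1.55). What this stretch adds to the ENO2 and TPI1 differences was not tested. When 1 CALR library was left out, ENO2 passed in all 3 fits and LDHA, PFKP, TPI1 and GPI in 0 of 3. GPI also did not pass after quantile normalisation (-0.50) or without the filter on low values (limma adjusted p = 0.0708 and 0.0654). The GPI call ended in 19 of the 24 fits that left out any 1 knockout library.

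In the MCFD2 knockout 2 members were higher and 2 lower (5.01% of all genes passed, 1.61% higher and 3.4% lower). PFKL (ENSG00000141959, chr21:44300051-44327376, plus strand), the liver form of phosphofructokinase, read 7.59, 7.80 and 7.40 against 5.66 to 7.12 (median 6.44) in the other knockouts, higher by 1.08 ± 0.20 (limma adjusted p = 0.00229), without overlap. ENO2 read 6.31, 6.52 and 6.19 against 3.94 to 6.70 (median 5.01), higher by 1.31 ± 0.27 (limma adjusted p = 0.00429), with the CALR libraries beside it. Both passed in all 3 fits that left out 1 MCFD2 library. Within 1 megabase of ENO2, 18 of 26 tested genes had the same sign, with a median of 0.17, and C12orf57 passed at 0.89 (limma adjusted p = 0.031).

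SUCLG1 was lower there, at 4.37, 4.89 and 4.53 against 4.99 to 5.58 (median 5.27), a difference of -0.68 ± 0.17, and so was PDHA1, at 8.96, 9.85 and 9.37 against 9.58 to 10.43 (median 9.96), a difference of -0.58 ± 0.14 (limma adjusted p = 0.0166 and 0.0165). The SUCLG1 sets did not overlap and the PDHA1 sets did. SUCLG1 lies on chromosome 2, and 8 of 9 tested genes within 1 megabase had the same sign, with a median of -0.34. Of these TGOLN2 passed, at -0.74 (limma adjusted p = 0.00638). What these neighbours add to the SUCLG1 difference was not tested. Neither SUCLG1 nor PDHA1 passed without MCFD2 replicate 1 (limma adjusted p = 0.164 and 0.272) or replicate 3. PDHA1 also did not pass after quantile normalisation (-0.47) or with voom weights (-0.34; limma adjusted p = 0.0635 and 0.0729).

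The GABARAPL2 knockout had 3 members higher and 0 lower (4.08% of all genes passed, 2.55% higher and 1.53% lower). SDHD (ENSG00000204370, chr11:112086773-112120013, plus strand), a membrane anchor of succinate dehydrogenase, stood at 1.51, 2.29 and 2.34 in this line and -2.97 to 0.21 (median -0.88) in the other 21 knockout libraries. The difference of 3.02 ± 0.43 was 8.11-fold (limma adjusted p = 0.000147), with no overlap, and it passed in all 3 fits without 1 of the line's libraries. It rested on 158, 96 and 54 reads in the GABARAPL2 replicates. TIMM8B, a listed gene that overlaps SDHD, differed by 0.05 in the same comparison (limma adjusted p = 0.90). Within 1 megabase of SDHD, 7 of 12 tested genes had the same sign, with a median of 0.10. Of these PTS passed, at 1.59 (limma adjusted p = 0.0347), and its part in the SDHD difference was not tested.

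The other membrane anchor, SDHC, read 5.63, 5.50 and 5.46 against 4.24 to 5.46 (median 4.74), a difference of 0.74 ± 0.20 (limma adjusted p = 0.031). Within 1 megabase of SDHC, 13 of 19 tested genes had the same sign, with a median of 0.11, and PFDN2 passed at 1.16 (limma adjusted p = 0.00756). PGAM1, phosphoglycerate mutase, read 10.66, 10.73 and 10.42 against 9.55 to 10.65 (median 10.12), a difference of 0.49 ± 0.14 (limma adjusted p = 0.046). SDHC and PGAM1 both overlapped with other lines and passed in 0 of the 3 fits that left out 1 GABARAPL2 library. PGAM1 lost its call in 15 of the 24 fits without any 1 knockout library. PGAM1 also did not pass after quantile normalisation (0.33, limma adjusted p = 0.16), with the replicate block (limma adjusted p = 0.054) or without the filter (limma adjusted p = 0.0619), nor did SDHC without the filter (limma adjusted p = 0.0533).

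In the ATG7 knockout 0 members were higher and 2 lower (1.44% of all genes passed, 0.309% higher and 1.13% lower). TPI1 measured 10.81, 11.13 and 11.10 against 11.32 to 12.02 (median 11.60), below every other knockout library (-0.64 ± 0.11, limma adjusted p = 0.00166). Within 1 megabase of TPI1 on chromosome 12, 22 of 25 tested genes had the same sign, with a median of -0.31. Of these MLF2 passed, at -0.83 (limma adjusted p = 0.00465). The share of these neighbours in the TPI1 value was not tested. PFKL measured 5.66, 5.71 and 6.06 against 6.02 to 7.80 (median 6.87), a difference of -0.96 ± 0.20 (limma adjusted p = 0.0114), low with some overlap. Without ATG7 replicate 1 neither passed (limma adjusted p = 0.0508 and 0.124), and PFKL did not without replicate 2 either.

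The GABARAP knockout had 1 member higher and 1 lower (2.67% of all genes passed, 0.794% higher and 1.88% lower). LDHB stood at 9.65, 9.74 and 9.68 against 8.63 to 9.46 (median 9.13), above every other knockout library (0.56 ± 0.11, limma adjusted p = 0.00513). SLC2A1 stood at -0.18, 1.26 and 1.71 against 1.27 to 4.30 (median 2.64), the lowest of the lines (-1.80 ± 0.35, limma adjusted p = 0.00445), on 1, 3 and 11 reads. Without GABARAP replicate 1 the SLC2A1 difference was -1.25 and did not pass (limma adjusted p = 0.0985), and LDHB did not pass without replicate 2 (limma adjusted p = 0.054).

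**Figure D4:**
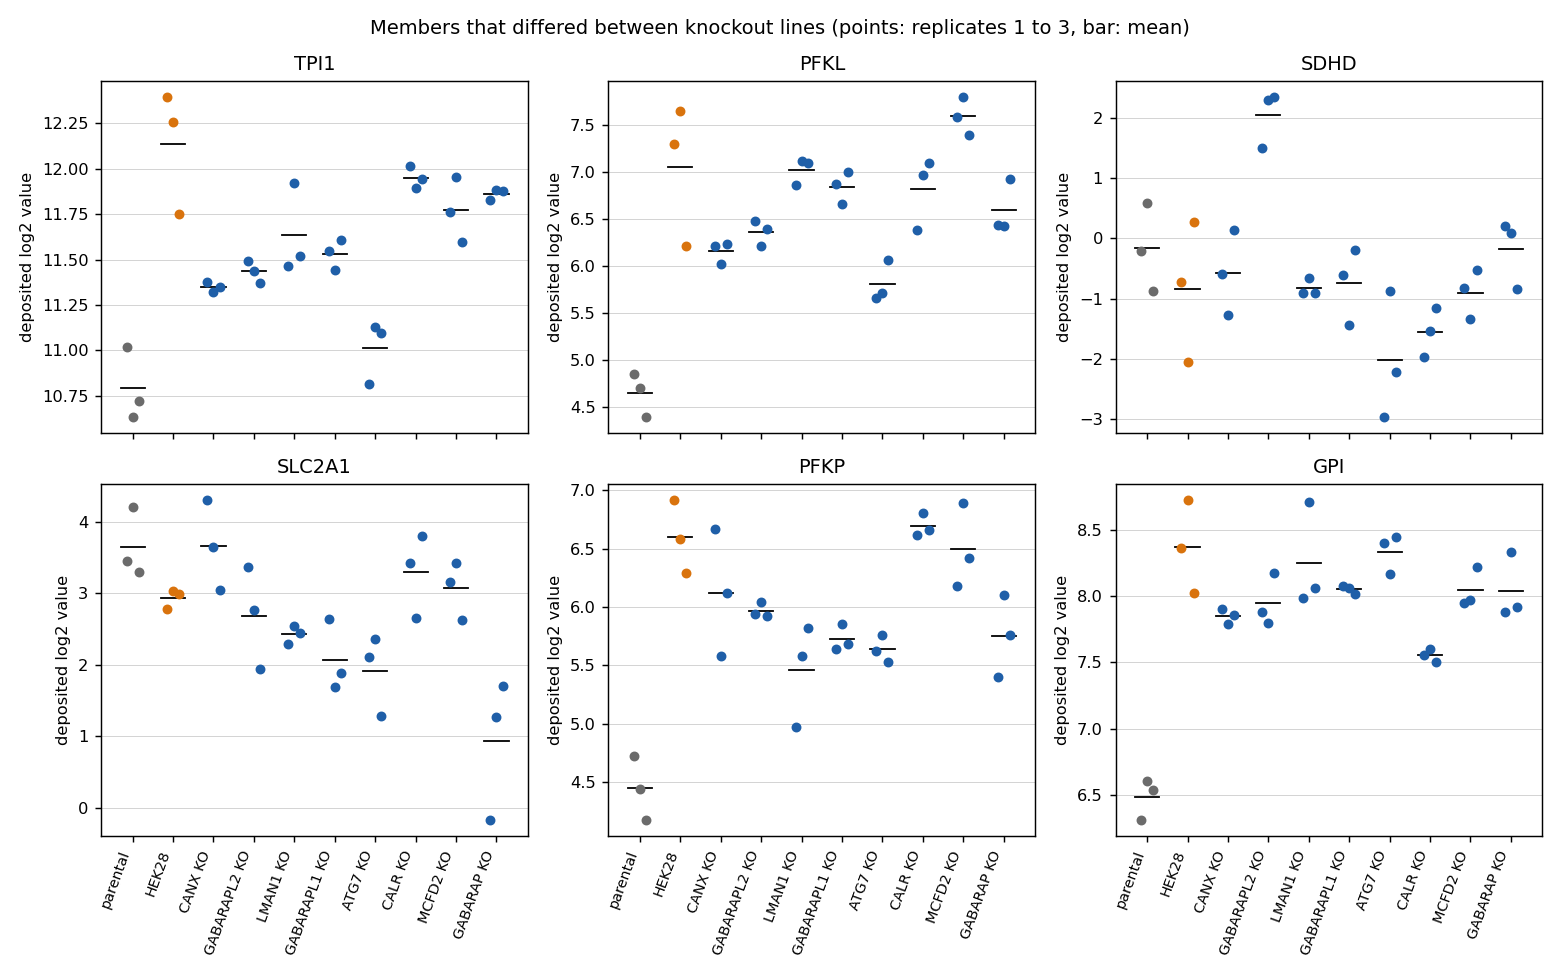
Deposited log2 values (vertical axis) of TPI1, PFKL, SDHD, SLC2A1, PFKP and GPI in the 3 replicates of each of the 10 groups, with bars at group means. The 3 GABARAPL2 knockout points for SDHD stand above all others, the ATG7 knockout points for TPI1 below and the MCFD2 knockout points for PFKL above those of the other knockouts.

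Targets of hypoxia-inducible factors were counted in the same comparisons. In the CALR knockout 4 of 13 rose against the other knockouts and 0 fell, where 2.89% of all genes passed, and in the MCFD2 knockout 3 rose and 0 fell, where 5.01% did. Of 13 in the GABARAP knockout 0 rose and 3 fell, where 2.67% of all genes passed. NDRG1, a stress-response gene, was at 1.23 in the CALR, 1.22 in the MCFD2 and -0.96 in the GABARAP knockout (limma adjusted p = 0.000897, 0.00103 and 0.0109). P4HA1 was at 1.34, 1.02 and -1.03 (limma adjusted p = 0.000179, 0.00251 and 0.00348). PDK1, from the list of pyruvate control, was at 2.10 in the CALR and -1.59 in the GABARAP knockout (limma adjusted p = 0.00256 and 0.024). The ATG7, LMAN1 and GABARAPL2 knockouts had 1 hypoxia target lower each and 0 higher: P4HA1 (-1.03), NDRG1 (-0.89) and EGLN3 (-1.63), with limma adjusted p = 0.00434, 0.0326 and 0.0238. In these lines 1.44%, 1.04% and 4.08% of all genes passed. The CANX and GABARAPL1 knockouts had 0 past the threshold (limma), and 4 and 2 at an unadjusted p under 0.05. Genes of the other metabolic lists passed too (limma). They were PCK2 in the CANX (2.85), SLC2A3 in the CALR (1.55), TKT in the GABARAPL2 (-0.795) and SDHAF4 in the ATG7 knockout (-1.85). In the MCFD2 knockout they were RPIA (-1.605), MPC1 (-1.21) and GOT1 (-0.95). Whether members and hypoxia targets move together was not tested.

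Isoform use was measured as the log2 difference of 2 genes within a library, in which library size cancels where both genes carry reads. At 0 or few reads the 0.5 added to the reads makes the difference depend on depth. Of 9 pairs 8 could be tested, ALDOC being too low. Each knockout line was compared with the other 21 knockout libraries and the 24 knockout libraries with the 3 parental ones, by an exact two-sided permutation test of the difference in means. Of these 72 tests 16 had a p under 0.05 and 10 an adjusted p under 0.05 (Benjamini-Hochberg over the 72). The smallest p the tests allow is 0.000988 for a line and 0.000684 for the parental comparison. The 21 libraries come from 7 lines and are not 21 separate lines.

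The balance of beta subunits of succinyl-CoA synthetase differed from parental. SUCLG2 minus SUCLA2 was -1.95, -3.17 and -2.86 in the parental replicates and -1.33 to 2.91 (median 0.52) in the knockout libraries, a mean difference of 3.26 without overlap (exact permutation adjusted p = 0.0237). In HEK28 it was 0.38, 1.51 and -0.50. SUCLA2 was low in reads too, with 1, 3 and 8 in the parental and 1, 1 and 3 in the HEK28 replicates. It had 0 reads in GABARAP knockout replicate 2, the library with the highest difference (2.91), so that value depends on depth. ENO2 minus ENO1 was -0.57, -1.11 and -0.86 in parental, -2.57, -2.89 and -4.87 in HEK28 and -3.73 to -1.39 (median -2.36) in the knockouts, lower than parental in every knockout library, with a mean difference of -1.60 (exact permutation adjusted p = 0.0237). ENO2 had 2, 5 and 1 reads in the HEK28 replicates. Both results against parental passed when 1 parental library was left out.

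For hexokinase, HK2 minus HK1 was 4.44, 5.59 and 4.51 in parental and 0.94, 2.00 and 0.77 in HEK28, with no overlap. HK2 had 0, 2 and 0 reads in these HEK28 replicates, so their differences depend on depth. The 3 against 3 design cannot give an exact p under 0.1. The knockout lines had means from 2.23 in LMAN1 to 4.62 in CANX, all between those 2 groups' means of 1.23 and 4.85. The LMAN1 libraries (1.94, 2.03 and 2.73) were lower than the other knockouts by 1.58 and the CANX libraries (4.38, 4.75 and 4.72) higher by 1.14 (exact permutation adjusted p = 0.0356 and 0.0285). Both overlapped with the other lines, and HK2 carried 2, 3 and 24 reads in the LMAN1 replicates.

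For lactate dehydrogenase, LDHA minus LDHB was highest in the CALR knockout and lowest in the GABARAP knockout. It was -1.13, -1.43 and -1.59 in CALR, -2.60, -2.96 and -2.91 in GABARAP and -2.96 to -1.13 (median -2.15) over all knockout libraries. The differences from the other knockouts were 0.84 and -0.80 (exact permutation adjusted p = 0.0316 and 0.0285). In parental it was -3.00, -3.00 and -1.98, and the comparison of the knockouts with parental did not pass (exact permutation adjusted p = 0.317).

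Among the other pairs, ENO2 minus ENO1 was higher in the CALR knockout by 1.05 (exact permutation adjusted p = 0.0316), at -1.39, -1.45 and -1.74, with the MCFD2 libraries (-1.63, -1.68 and -1.57) beside it. PFKL minus PFKP was higher in the LMAN1 knockout by 1.03 (exact permutation adjusted p = 0.0305). It was 1.89, 1.54 and 1.28 there and -0.45 to 1.41 in the other knockouts, with overlap. IDH1 minus IDH2, the cytosolic against the mitochondrial NADP-dependent isocitrate dehydrogenase, was 5.63, 5.11 and 5.25 in the GABARAPL2 knockout, above all 21 others and by 1.96 on average (exact permutation adjusted p = 0.0237). SUCLG2 minus SUCLA2 was lower in the ATG7 knockout by 1.56, at -0.50, -0.46 and -1.33 (exact permutation adjusted p = 0.0305). The other knockouts ran from -0.85 to 2.91, with overlap. The ATG7 values rest on 3, 20 and 7 SUCLA2 reads and 9, 57 and 11 SUCLG2 reads. For PFKM minus PFKP and MDH1 minus MDH2 0 of 18 tests passed. The 8 calls of single lines did not pass when 1 library of the line was left out, where 2 against 21 libraries limit the exact p.

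The balance of the 2 pathways was described by the mean deviation of their members from each gene's mean over the 30 libraries, with no test. The glycolysis mean minus the cycle mean was -0.52, -0.40 and -0.46 in parental, 0.95, 1.20 and -0.32 in HEK28, 0.50, 0.48 and 0.41 in the CALR and 0.27, 0.58 and 0.40 in the MCFD2 knockout. The other knockouts lay between -0.42 (GABARAPL2) and 0.03 (GABARAP) on average, and the SD of replicates pooled over groups was 0.31. HEK28 replicates 1 and 2 had the highest balance of all libraries, and that of replicate 3 lay 0.14 above the parental mean. With medians over members in place of means replicate 3 lay 0.73 above it, and its glycolysis mean includes HK2 and ENO2 at 0 and 1 reads. The CALR and MCFD2 libraries were all above those of the other 6 knockout lines.

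The 2 sides of the balance moved differently in different lines. In the CALR and MCFD2 knockouts the glycolysis mean was 0.52 and 0.37 and the cycle mean 0.05 and -0.05. In the GABARAPL2 knockout the cycle mean was 0.55 and the glycolysis mean 0.13. The parental libraries were low in both, at -0.99 for glycolysis and -0.53 for the cycle. HEK28 against parental gave a balance difference of 1.07, or 0.14 with HEK28 replicate 3 alone, and the knockout mean against parental one of 0.44. With medians these were 1.39, 0.73 and 0.78.

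**Figure D5:**
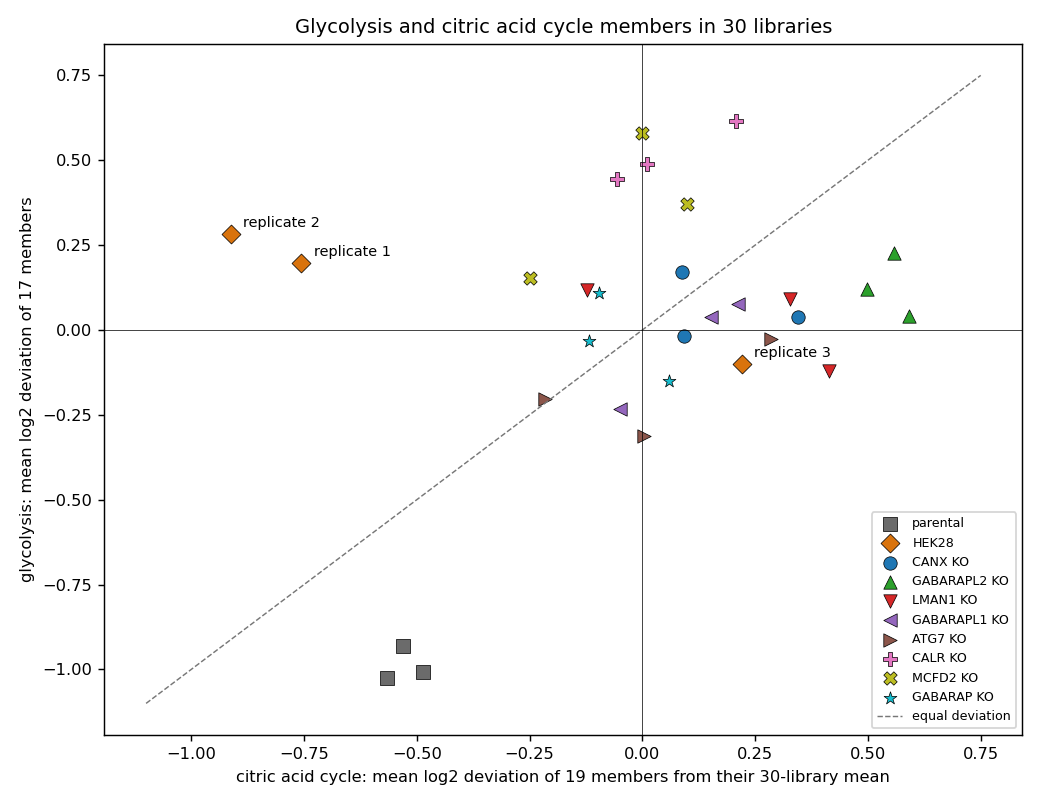
Mean log2 deviation of 17 glycolysis members (vertical axis) against that of 19 cycle members (horizontal axis), 1 point per library, with a dashed line of equal deviation. Parental libraries lie at the lower left, HEK28 replicates 1 and 2 at the far left, CALR and MCFD2 knockout libraries above the line and GABARAPL2 knockout libraries at the right below it.

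Some members share reads with other genes in ways the counting could split. Of the 42, 18 have at least 1 pseudogene named after them in GENCODE 29 and 17 overlap another listed gene, among them TPI1 with SPSB2, ENO2 with LRRC23, SLC2A1 with SLC2A1-AS1 and PDHA1 with MAP3K15. Whether the counting used strand is not given in the sources used here, so these values are uncertain to that extent. MAP3K15 differed by -0.33 in the MCFD2 knockout against the others (limma adjusted p = 0.751).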

How the data were processed

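Expression was measured by 3' RNA-seq in 30 libraries, 3 in each of 10 groups. The authors deposited 1 table of log2 values for 16975 genes; read trimming and alignment used cutadapt, TopHat2 and Bowtie with hg38, and FastQC for quality, per the submitters' processing notes, which give no versions. How reads were counted and scaled, and on which annotation, is not given in the sources used here. From the values, each deposited log2 value is that of reads plus 0.5, divided by a length per gene and by the library size, so whole reads could be recovered for 16885 genes and not for 90. All 8677 recovered lengths under 1000 were within 0.1 of a whole number.

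Genes needed at least 16.2 CPM from recovered reads, which is 10 reads at median depth, in at least 3 libraries, and 15 reads in all, which left 11337. The deposited log2 values were fitted with limma 3.58.1 (trend, robust; R 4.3.3) over all 30 libraries with 1 coefficient per group and no covariates. P-values were adjusted by Benjamini-Hochberg over all tested genes in each comparison, at 0.05. The fit was tested on simulated data. Isoform differences used exact permutation tests (scipy 1.17.1). Alternatives were quantile normalisation, an added pseudocount of 1, no filter, limma's voom weights on recovered reads (chosen after seeing the data, in place of a count model), only the samples compared, the replicate number as a block, and leaving out libraries. The lowest depth, 152105 reads, makes values of a few reads uncertain, and reads are given beside several of them.

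Groups came from the titles and genotype labels. For the parental libraries the cell line label reads HEK28 while title and genotype say parental, and 1 LMAN1 genotype is misspelled. Same-numbered libraries did not deviate together (median r -0.008 over 135 pairs), so the numbers were not used as pairs. Chi-square per degree of freedom between libraries of the same group ran from 1.52 to 10.1. All these values lay above the level that sampling noise alone would give. No p was computed, and pairs of libraries from different groups were not examined.

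The genes and lists were chosen with earlier results of these data known. Values in every library are given for the up to 5 members per direction with the lowest adjusted p in the knockout mean against parental that also passed in HEK28 in the same direction. They are also given for members that passed in HEK28 with the opposite sign in that mean, for up to 4 passing members per direction in each knockout against the other 7, for the 10 lowest in the F test, and for the isoform pairs. Of the other lists some passing genes are named, at most 4 per direction and comparison, and others are not. DLST, SDHB, FH and PDHB were added after their values were seen.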

Additional observations from a re-analysis of the deposited data

How the results depend on the processing

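Counts in this section show how calls of members move with the processing. For most of these fits the share of all genes is not given, so such moves may hold for all genes alike. Against the parental line, the knockout mean had 24 to 27 called members when 1 library was left out, and HEK28 had 20 to 24. Only the 6 samples of the HEK28 comparison gave 12. The cause was not tested, beyond fewer samples entering the fit. With the replicate number as a block the counts were 21 and 27, in the order CANX, GABARAPL2, LMAN1, GABARAPL1, ATG7, CALR, MCFD2 and GABARAP 13, 12, 3, 4, 12, 7, 9 and 2 against HEK28 and 0, 2, 0, 0, 2, 5, 4 and 2 against the other knockouts, and 10 in the F test, so the block moved no count by over 1.5 times and the labels share only a number.

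The counts against HEK28 were the least stable. In the same order, leaving out 1 library gave ranges of 3 to 17, 10 to 21, 0 to 14, 0 to 16, 3 to 15, 4 to 17, 4 to 16 and 0 to 18, and the 6 samples alone gave 0 in each. Without HEK28 replicates 1 and 2 the counts were 2, 3, 0, 1, 2, 2, 3 and 1. Without the filter CANX had 9, LMAN1 1, GABARAPL1 2, ATG7 6 and GABARAP 1. LMAN1 had 2 with quantile normalisation, where 374 of 11337 genes passed. Quantile normalisation shifts the median of all genes by -0.141 to -0.26 in these comparisons. With voom weights on recovered reads, an alternative chosen after seeing the data, ATG7 had 5 and GABARAP 1. Signs turned for some members without HEK28 replicates 1 and 2. Against parental DLST went to 0.26 and SDHA to 0.35. In the CANX knockout FH went to -0.036, DLST to -0.25, SDHA to -0.21 and PGK1 to -0.027, in LMAN1 DLST to -0.39 and SDHA to -0.093, and in ATG7 SDHB to -0.43, PKM to 0.039 and SDHA to -0.19. In CALR SDHA went to -0.20, and in MCFD2 DLST to -0.25 and SDHA to -0.069.

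Against the other knockouts, leaving out 1 library gave 0 to 1 for CANX, 1 to 3 for GABARAPL2, 0 for LMAN1 and GABARAPL1, 0 to 4 for ATG7, 1 to 6 for CALR, 2 to 4 for MCFD2 and 1 to 3 for GABARAP, and 8 to 11 in the F test. Fits of only the samples compared gave more, with the share of all genes not given. Their counts were CANX 2, GABARAPL2 9, LMAN1 1, ATG7 5, CALR 9, MCFD2 7 and GABARAP 7. Voom weights gave more too: CANX 6, GABARAPL2 14, LMAN1 2, GABARAPL1 1, ATG7 4, CALR 15, MCFD2 10 and GABARAP 5. They gave 27 in the F test. The planned count model on recovered reads was run before the voom fit and is left out, since the deposited unit is log2. ATG7 had 4 with quantile normalisation, where 185 of 11337 genes passed. GABARAPL2 had 1 without the filter and CANX 1 with the added pseudocount.

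The isoform differences ranged, with 1 library left out, from -1.73 to -1.46 (ENO2 minus ENO1, knockouts against parental) and 3.00 to 3.62 (SUCLG2 minus SUCLA2, the same), and for single lines from 0.98 to 1.15 (ENO2 minus ENO1, CALR), 1.08 to 1.26 and -1.83 to -1.43 (HK2 minus HK1, CANX and LMAN1), 1.81 to 2.07 (IDH1 minus IDH2, GABARAPL2), 0.71 to 0.94 and -0.92 to -0.74 (LDHA minus LDHB, CALR and GABARAP), 0.87 to 1.17 (PFKL minus PFKP, LMAN1) and -1.71 to -1.28 (SUCLG2 minus SUCLA2, ATG7). With medians in place of means the pathway balance was 1.39 in HEK28 against parental, 0.73 for HEK28 replicate 3 alone and 0.78 in the knockout mean. The tested members with fewest reads over the 30 libraries were SUCLA2 (305), HK2 (447), SDHD (513), OGDH (708), SLC2A1 (714), IDH1 (748) and ENO2 (854). The cause of these changes was not tested.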
